A study of Mus musculus with 53 samples.

Results

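Smooth muscle contractile genes were described in whole intestinal tissue of genetically engineered mice. The set holds genes of visceral smooth muscle contraction and Acta1, the actin of skeletal muscle, 31 in all. They were listed by symbol, with earlier results of these data known. All 31 were found among the 55421 gene identifiers of the count table, each on a row of its own. They comprise actins, myosin with its kinase and phosphatase, thin filament proteins, proteins that attach filaments to the cell membrane, calcium handling proteins and the coactivator Myocd. Of these, 27 had reads in all 53 libraries, and Casq2, Pln, Hspb6 and Myocd each had reads in 52.

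The study compared mice in which tamoxifen, given between 6 and 12 weeks of age, activated VillinCreER, a Cre recombinase driven by the villin promoter. Villin is made by the intestinal epithelium, so the alleles were recombined in epithelium and the muscle wall was not the tissue targeted. WT mice carried VillinCreER alone, and every group was induced. Alk5fl/fl mice (A) lost the TGF-beta receptor ALK5, and BrafV600E/+ Alk5fl/fl mice (BA) also carried an activated BRAF kinase. At day 30 (d30) after induction, proximal colon was taken from 4 WT, 4 A, 4 sulindac-treated A, 5 BA and 5 antibiotic-treated BA mice. The antibiotics were ampicillin, neomycin trisulphate and metronidazole at 1 g/L each and vancomycin at 500 mg/L in drinking water, begun the day after tamoxifen. Sulindac, a non-steroidal anti-inflammatory drug, was given at 0.4 g/L for 14 days and followed by plain water. Small intestine (SI) at day 4 came from 10 Apcfl/fl and 6 WT mice, which lost both or neither copy of the Wnt pathway brake APC. All of these mice, and the 4 BA tumours and 3 WT proximal colon samples, were of a mixed C57BL/6J background at N6. The 5 Apcfl/+ tumours and 3 WT SI samples came from inbred C57BL6/J mice (N9, 99.8%).

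The gut wall contains an inner circular and an outer longitudinal layer of smooth muscle, with a thin muscularis mucosae beneath the epithelium. In these cells calcium activates myosin light chain kinase, which phosphorylates the myosin light chain and lets myosin pull on actin, and a phosphatase reverses the step. Serum response factor and its coactivators myocardin and the MRTF proteins drive many of these genes through a DNA element called the CArG box. Acta1 encodes the actin of skeletal muscle, whereas Acta2 and Actg2 encode the actins typical of smooth muscle.

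Libraries held between 516985 and 32824795 assigned reads, with a median of 18356939, and levels are given as CPM, which scales the counts of every library to one common total of assigned reads. In the d30 comparisons with WT, reads of the processed pseudogene Gm13394 ran with genotype, at 0.43 to 0.80 CPM in the WT libraries and 68.4 to 222 CPM in all others, so the source of that difference and genotype cannot be told apart. The same held in the opposite direction for Apcfl/+ tumours and WT SI. It did not hold between BA mice with and without antibiotics or between A mice with and without sulindac. The small RNA Rn7sk stood at 3511 to 24538 CPM in the 15 libraries of tumours and their controls and at no more than 99.9 CPM in the other 38, and no comparison crossed that divide except the differences between effects given last.

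The summed level of the contractile genes differed several fold between libraries. Summed over the 31 genes, the WT d30 libraries held 11356 to 13070.4 CPM, which was 1.14 to 1.31% of all assigned reads. From the highest median to the lowest, the groups ran WT proximal colon (14338 CPM), A d30 (12183), WT d30 (12087), BA d30 with antibiotics (8968), A d30 with sulindac (7977), BA tumour (6254), BA d30 (5788), WT SI (4754), Apcfl/fl d4 (3899), WT SI d4 (3524) and Apcfl/+ tumour (3031). The ranges of neighbouring groups in this order overlapped in every case. The order belongs to the sum, which genes with many reads dominate, and single genes did not all follow it. Flna read 1084 to 1852 CPM in BA tumours and 293 to 824 in BA d30 colon, while Actg2 read 228 to 519 and 142 to 763. In WT SI, Actg2 read 56.2 to 112 CPM, and in Apcfl/fl d4 9.67 to 537. Spread within a group was wide: WT proximal colon replicate 3 held 5609 CPM beside 14338 and 18566 in the other two, and the BA d30 libraries ran from 2929 to 8377 CPM. In bulk tissue, fewer muscle cells and less RNA per muscle cell cannot be told apart.

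**Figure D1:**
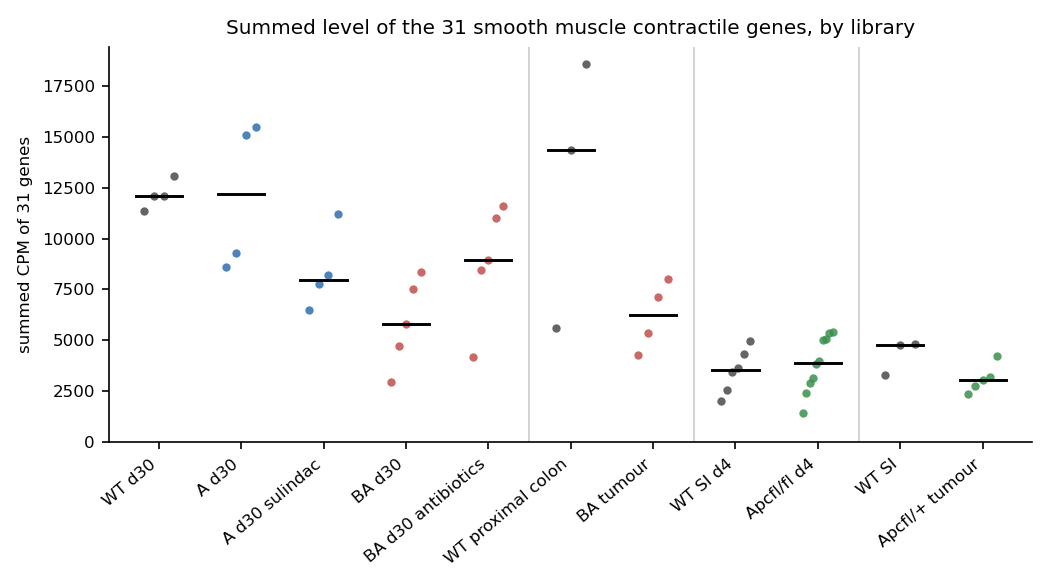
Summed CPM of the 31 smooth muscle contractile genes in each of the 53 libraries, by group; each point is a library and the line marks the group median. WT d30 libraries lay between 11356 and 13070.4 CPM and BA d30 libraries between 2929 and 8377 CPM.

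Levels per kilobase of exon (RPKM, computed here from the counts) show which members dominate. In WT d30 colon the highest medians were those of Acta2 at 633 RPKM, Actg2 at 595 and Myl9, the regulatory light chain of smooth muscle myosin, at 494. Myh11, the smooth muscle myosin heavy chain, stood at 220.4 RPKM. The lowest were Dmd, which encodes dystrophin, at 1.10 RPKM, and Myocd at 1.25. Acta1 stood at 3.47 RPKM, far below the other 2 actins.

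As examples from the 8 of 26 members that hold CArG-like boxes, stretches before the RefSeq start sites of Acta1 and Myl9 are shown. The build is GRCm38.p6 and the boxes are in capitals. A box here is CC, 6 middle bases and GG, on either strand, with at most 1 of the 6 middle bases being C or G. They are the 250 bases before Acta1 at chr8:123894776-123895025 (reverse strand) and 206 bases at chr2:156775214-156775419 (forward) that end where GENCODE vM21 has the Myl9 gene begin, 44 bases ahead of the RefSeq start. Both lie outside the gene as GENCODE annotates it.
Acta1: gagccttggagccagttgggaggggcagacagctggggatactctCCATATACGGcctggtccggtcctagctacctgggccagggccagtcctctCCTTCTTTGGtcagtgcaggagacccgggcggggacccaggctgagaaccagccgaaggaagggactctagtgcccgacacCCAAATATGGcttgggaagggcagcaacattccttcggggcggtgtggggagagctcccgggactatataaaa
Myl9: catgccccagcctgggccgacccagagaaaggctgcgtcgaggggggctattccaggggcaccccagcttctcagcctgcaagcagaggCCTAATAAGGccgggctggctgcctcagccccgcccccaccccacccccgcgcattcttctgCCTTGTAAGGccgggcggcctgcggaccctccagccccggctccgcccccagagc

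Acta1 held 3 such boxes, beginning 205, 154 and 73 bases before the RefSeq start. The nearest of them had only A and T in the middle. GENCODE vM21 has the Acta1 gene begin further downstream, at chr8:123894751, so these distances depend on the annotation. Myl9 held 2 boxes, at 161 and 99 bases before the RefSeq start. Acta2 held 2, at 84 and 34 bases, in a window of which 217 of 250 bases lie inside the gene in the GENCODE annotation, so its letters are not shown. RefSeq windows of 250 bases before to 50 after the start were at hand for 26 of the 31 genes, and not for Actg2, Myh11, Tagln, Itga7 and Myocd. A CArG box with only A and T in the middle lay in the window of 4 of the 26 (15.4%), namely Acta1, Myl9, Ldb3 and Dmd, against 1.81% of 27025 mouse genes. With 1 middle C or G allowed, 8 of the 26 (30.8%) held a box, against 11.3% of all genes. A match of letters is a description and not evidence of binding.

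At day 30, BA colon held lower levels of nearly every contractile gene than WT colon. Of the 31 genes, 26 were lower and 1 was higher at an edgeR quasi-likelihood adjusted p under 0.05, where 55.1% of the 17471 genes tested passed in either direction and 29.3% were lower. The median log2 fold change of the 31 was -0.99, beside -0.03 over all genes tested. The BA and WT libraries did not overlap for 28 genes on the lower side (32% of all genes) and for 1 on the higher side (14%). Only the WT libraries had Gm13394 below 10 CPM in this comparison.

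Among the actins, Acta2 stood at 1249.7, 1418, 1419.7 and 1363 CPM in WT and at 797, 246, 696, 507 and 435 CPM in BA. All 5 BA libraries were below all 4 WT libraries, a 2.29-fold fall (log2 -1.20 ± 0.26 (SE), adjusted p = 0.00245). Actg2, the enteric smooth muscle actin, had 949.7, 905, 975 and 785 CPM in WT and 763, 142, 654, 584 and 275 in BA. These ranges did not overlap either, but the difference did not pass (log2 -0.75 ± 0.38, adjusted p = 0.11).

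Acta1 read 4.40, 3.45, 6.26 and 6.35 CPM in WT and 2.47, 1.34, 1.66, 1.90 and 2.58 in BA. Every BA library lay below every WT library, and the fall was 2.31-fold (log2 -1.21 ± 0.25, adjusted p = 0.0016), of about the same size as that of Acta2. The call held without each library in turn, at log2 -1.35 to -1.09.

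The motor and its regulators fell with the actins. Myh11 was at 1599, 1574, 1899.6 and 1751 CPM in WT and at 1073, 238, 905, 619 and 518 in BA. BA replicate 2 was the lowest and no BA library reached the WT range (2.29-fold lower, log2 -1.20 ± 0.32, adjusted p = 0.0085). Myl9 fell 2.24-fold and Mylk, the light chain kinase, 1.9-fold (adjusted p = 0.00237 and 0.00423). Of the phosphatase genes, Ppp1r12b, a regulatory subunit, fell 2.19-fold and Ppp1r14a, which encodes the phosphatase inhibitor CPI-17, fell 1.9-fold (adjusted p = 0.00357 and 0.00259). Ppp1r12a, the more widely expressed regulatory subunit, read 157 to 205 CPM in BA and 167 to 213 in WT.

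All 7 thin filament genes were lower. Smtn, an actin-binding protein of contractile muscle, was at 201, 248, 264 and 239.7 CPM in WT and at 135, 45.8, 119.6, 85.3 and 76.9 in BA, a 2.33-fold fall with no overlap (adjusted p = 0.00157). Cnn1 (calponin), Tagln (transgelin), Cald1 (caldesmon), Tpm2 (a tropomyosin) and Lmod1 (which nucleates actin filaments) fell 1.79- to 2.07-fold. The fall of Cnn1 was the least secure, with an adjusted p of 0.0496, and it passed in 3 of the 9 fits without a library. The smallest fall was that of Tpm1, another tropomyosin, at 1.33-fold (adjusted p = 0.0251), and it passed in 5 of the 9 fits without a library.

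Among the 9 attachment genes, 6 fell, 1 rose and 2 were not called. Dmd fell 1.86-fold, from 23.0 to 28.9 CPM in WT to 8.18 to 16.0 in BA (log2 -0.89 ± 0.16, adjusted p = 0.000677). Flna, which crosslinks actin, fell 2.12-fold and Pgm5, a protein of adherens-type junctions, 2.09-fold. The calls of Synm and Synpo2 held in 5 and 7 of the 9 fits without a library. Des, the intermediate filament desmin, read 117 to 533 CPM in BA and 647 to 730.2 in WT without passing, and Ldb3, a PDZ-LIM protein, read 15.8 to 20.6 in BA and 18.8 to 20.7 in WT.

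Itga7, which encodes the laminin receptor integrin alpha 7, went the other way. It read 62.4, 63.2, 64.7 and 63.4 CPM in WT and 96.4, 119, 111, 109.7 and 93.1 in BA. Each BA library exceeded each WT library, and the rise was 1.85-fold (log2 0.89 ± 0.08, adjusted p = 4.62e-06).

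The 5 genes of calcium handling, channel and kinase substrate all fell. Pln, the inhibitor of the sarcoplasmic calcium pump, was at 4.02, 4.83, 4.52 and 4.52 CPM in WT and at 1.86, 0.392, 2.19, 1.04 and 1.83 in BA, the largest fall among the 31 (2.79-fold, log2 -1.48 ± 0.34, adjusted p = 0.00318). Casq2, which stores calcium in the sarcoplasmic reticulum, fell 2.65-fold (log2 -1.41 ± 0.20, adjusted p = 0.000157). Jph2, which ties that store to the cell membrane, fell 2.18-fold, Hspb6, a small heat shock protein phosphorylated during relaxation, 2.04-fold and Kcnmb1, a subunit of the BK potassium channel, 1.9-fold. Myocd fell 2.06-fold (adjusted p = 0.0225) and passed in 7 of the 9 fits without a library.

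**Figure D2:**
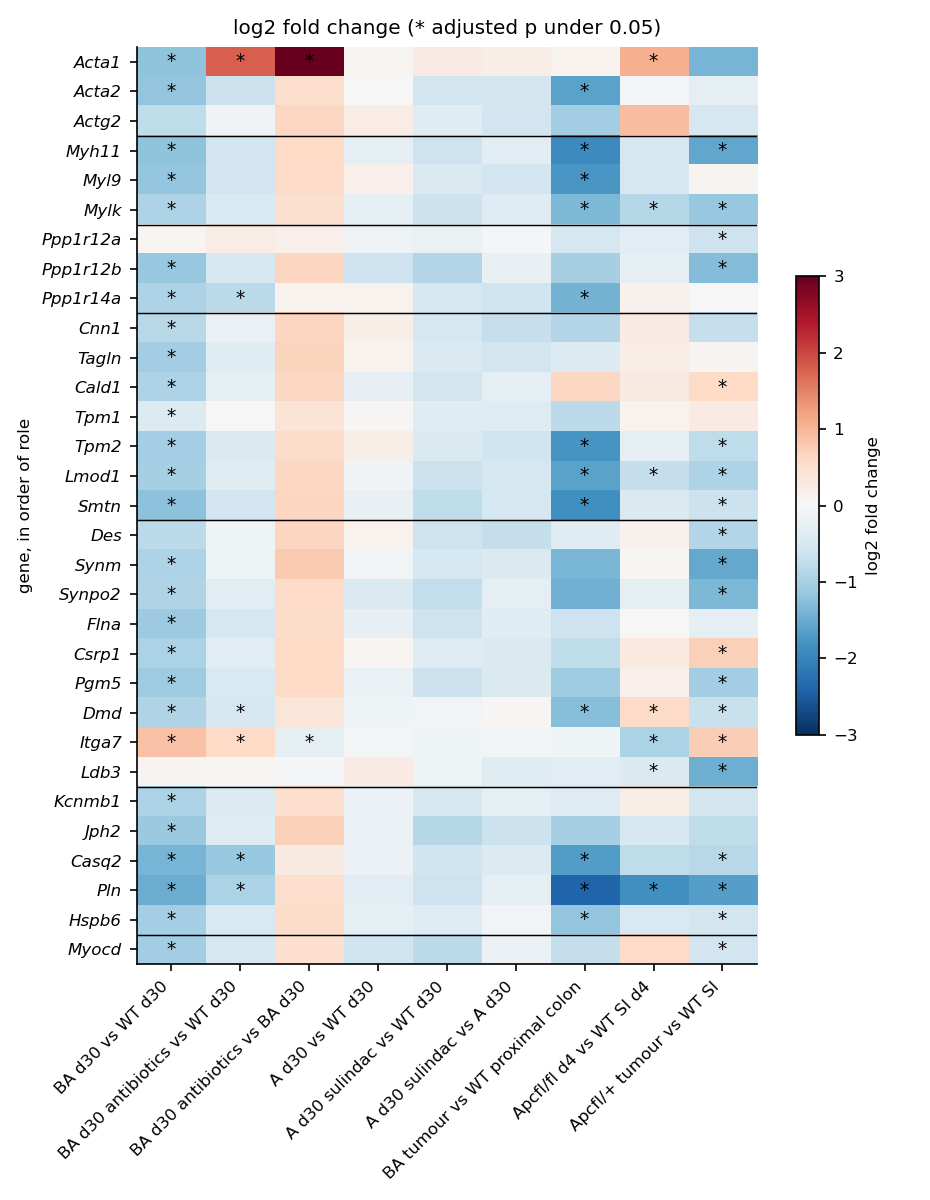
Log2 fold change of each of the 31 genes (rows, by role) in 9 comparisons (columns); the colour scale runs from -3 to 3 and an asterisk marks an edgeR adjusted p under 0.05. The BA d30 column is lower throughout except for Itga7, Ppp1r12a and Ldb3, and the Acta1 row rises in the antibiotic columns.

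Markers of other cells in the colon wall moved in the same comparison. All 10 epithelial markers were higher in BA than in WT, with a summed level of 25030.1 to 27949.5 CPM beside 13577 to 16379.9 CPM. Lower were 9 of 10 enteric neuron markers (sum 18.5 to 55.0 CPM in BA, 55.2 to 127 in WT), 4 of 5 enteric glia markers (5.91 to 13.6 and 17.1 to 33.6 CPM) and all 4 of the tested markers of interstitial cells of Cajal, the pacemaker cells of the muscle layer (67.4 to 86.7 and 151 to 186 CPM). Fibroblast markers were lower for 5 of 6 (886 to 1151 and 1342 to 1692 CPM) and endothelial markers for 2 of 4 (77.1 to 108 and 114 to 138 CPM). Of 9 tested striated muscle markers 3 were lower and 1 higher, with the 19 listed summing to 20.5 to 32.2 CPM in BA and 46.2 to 55.7 in WT. The higher one was the troponin gene Tnni2 (log2 4.45, adjusted p = 1.83e-07). The lowest was another troponin gene, Tnni1 (log2 -3.72, adjusted p = 1.33e-07). Vessel wall and pericyte markers, from cells that also express Acta2 and Myh11, summed to 148 to 339.9 CPM in BA and 434 to 588 in WT, and 2 of 4 were lower. The part of these cells in the lower contractile gene levels was not tested. A further list of 35 genes of the pathway, called other smooth muscle genes below, also holds an actin of heart muscle. Of these 35, 19 were lower and 6 higher, with a median log2 fold change of -0.62. The lowest of them was Actc1, the cardiac actin (log2 -2.30, adjusted p = 0.000187), and the highest was Rock2, a kinase that inhibits the myosin phosphatase (log2 1.14, adjusted p = 5.57e-05).

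**Figure D3:**
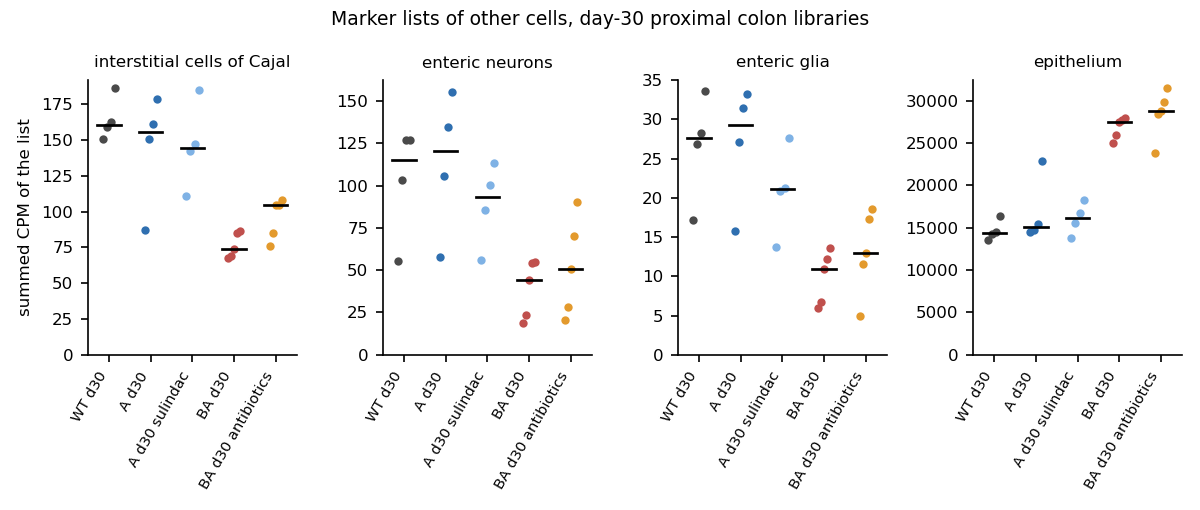
Summed CPM of markers of interstitial cells of Cajal, enteric neurons, enteric glia and epithelium in the libraries of the 5 d30 groups; each point is a library and lines mark medians. Epithelial markers stood at 25030.1 to 27949.5 CPM in BA and 13577 to 16379.9 CPM in WT, while the other 3 lists were lower in BA.

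With antibiotics, fewer contractile genes of BA colon passed against WT, and Acta1 stood far above it. Against the same WT d30 libraries, 2 of the 31 genes were higher and 4 lower, where 39.6% of 17569 genes passed in either direction, 21.8% higher and 17.8% lower. Over the 31 genes the median log2 fold change was -0.41, beside 0.01 over all genes. Groups did not overlap for 2 genes on the higher side (13.6% of all genes) and 10 on the lower side (19.8%). Both BA comparisons and both A comparisons share these WT libraries, so their values are given side by side only. Here too all 10 epithelial markers were higher than in WT (23758 to 31526 CPM summed, against 13577 to 16379.9), and lower were all 4 tested markers of interstitial cells of Cajal (75.9 to 108 against 151 to 186 CPM), 3 of 5 glial and 2 of 10 neuron markers. None of 6 fibroblast or 4 vessel wall and pericyte markers passed. Of 10 tested striated muscle markers 1 was higher, Tnni2 (log2 4.61, adjusted p = 1.85e-07). Another 1 was lower, Tnni1 (log2 -3.51, adjusted p = 4.84e-07). Their part in these values was not tested.

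Acta1 read 12.3, 22.9, 15.1, 13.3 and 19.0 CPM in the antibiotic-treated BA libraries, against 3.45 to 6.35 in WT. The lowest treated library was well above the highest WT library, and the rise was 3.49-fold (log2 1.80 ± 0.25, adjusted p = 0.000329). Itga7 was again higher, at 83.2 to 95.9 CPM in treated BA against 62.4 to 64.7 in WT (1.52-fold, adjusted p = 3.62e-05). The 4 lower genes were Casq2 (2.19-fold), Pln (1.92-fold), Ppp1r14a (1.76-fold) and Dmd (1.43-fold), with adjusted p of 0.00695, 0.0141, 0.0127 and 0.0114. Myh11 read 435, 1366, 851, 1492 and 1138 CPM in treated BA, all below the WT range, without passing (log2 -0.58 ± 0.29, adjusted p = 0.136). Acta2 gave log2 -0.66 ± 0.26 (adjusted p = 0.0705) and Actg2 -0.11 ± 0.31 (adjusted p = 0.81).

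The direct comparison of BA with and without antibiotics does not involve the WT libraries, and Gm13394 was above 10 CPM in all 10 of its libraries. Here 1 of the 31 genes was higher and 1 lower, where 13% of 16680 genes passed, 4.53% higher and 8.5% lower. Acta1 was the higher gene. All 5 treated libraries (12.3 to 22.9 CPM) stood above all 5 untreated ones (1.34 to 2.58 CPM), a 7.97-fold difference (log2 2.99 ± 0.24, adjusted p = 8.92e-05). Acta1 was the only member whose groups did not overlap, as did 6.21% of all genes on the higher side, while 0 members and 5.85% of all genes did so on the lower side. Without each library in turn the log2 fold change of Acta1 was 2.82 to 3.11 and passed each time.

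The lower gene was Itga7, at 83.2 to 95.9 CPM with and 93.1 to 119 CPM without antibiotics (log2 -0.30 ± 0.07, adjusted p = 0.0196). The ranges overlapped, and the call was lost in a joint fit of the 5 d30 groups (adjusted p = 0.187) and when BA d30 replicate 2 was left out, where 1 call among the 31 remained. The other 29 genes gave a positive log2 fold change except Ldb3, and none passed. Myh11 was 0.60 ± 0.39 higher on the log2 scale (adjusted p = 0.315), Acta2 0.53 ± 0.33 (adjusted p = 0.301) and Actg2 0.63 ± 0.45 (adjusted p = 0.351). The median over the 31 was 0.57, beside 0.03 over all genes. Without antibiotic replicate 1, which had the lowest Myh11 of the treated group, the count of called members was 5.

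Few other muscle genes passed beside Acta1. Of 35 other smooth muscle genes only Chrm3, the muscarinic receptor that triggers contraction, passed (log2 0.79 ± 0.23, adjusted p = 0.0445). The highest value among them was that of Sgca, a sarcoglycan, at log2 1.24 (adjusted p = 0.101), and the lowest that of Lpp, a focal adhesion protein, at -0.20 (adjusted p = 0.207). No striated muscle marker passed among the 8 tested, and the 19 listed summed to 23.1 to 46.8 CPM with and 20.5 to 32.2 CPM without antibiotics. The 8 tested ran from Neb (log2 -0.43, adjusted p = 0.125) to Ckm (log2 0.81, adjusted p = 0.238). Of the listed markers, Myh1, Myh4, Pvalb and Tnnc2 were at 0 in most d30 libraries and at no more than 0.135 CPM in any, while others had reads. None of the tested markers of epithelium (10), interstitial cells of Cajal (4) or enteric neurons (9) passed, and 1 of 5 glial markers was lower. Antibiotic replicate 3 stood apart in fibroblast markers (7578 CPM summed, against 969 to 1480 in the other 4) and in mesothelial markers (88.7 CPM against 9.97 to 19.3), and its Acta1 level of 15.1 CPM was the middle value of its group.

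**Figure D4:**
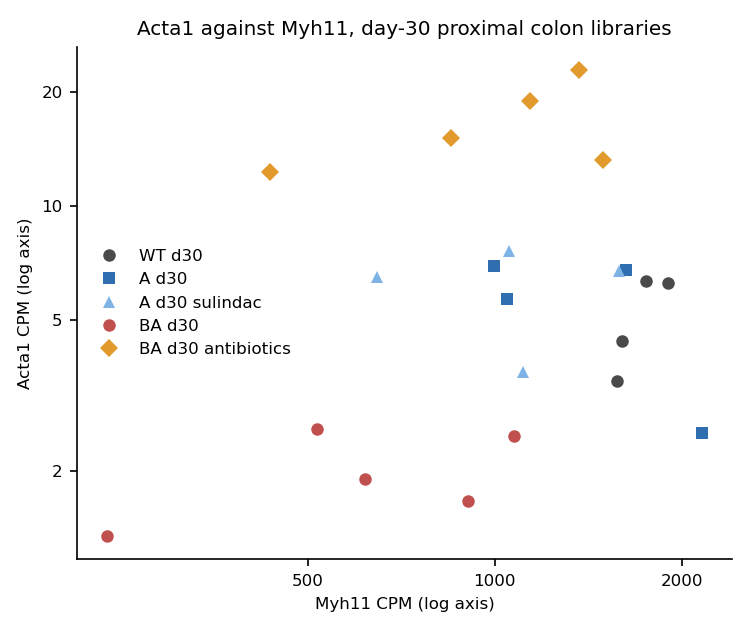
Acta1 against Myh11 in CPM, both on log axes, for the libraries of the 5 d30 groups. Antibiotic-treated BA libraries (Acta1 12.3 to 22.9 CPM) form the upper band, and untreated BA libraries (1.34 to 2.58 CPM) lie at the foot of the plot together with A replicate 3 (2.52 CPM).

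Loss of Alk5 alone, with or without sulindac, gave no called member. Between A and WT at d30, 0 of 31 passed in edgeR, where 0.141% of 17713 genes did (0.096% higher and 0.0452% lower), and DESeq2 called 0. At an unadjusted p under 0.05 there was 1, beside 9.69% of all genes. Over the members the median log2 fold change was -0.12, beside 0.01 over all genes. Groups overlapped for every member, where 4.08% of all genes did not overlap on the higher side and 1.17% on the lower side. The A libraries differed among themselves, with Myh11 at 997, 1624, 2154 and 1047 CPM and Acta2 at 1015, 1968, 1604 and 1116. Acta1 read 6.95, 6.78, 2.52 and 5.69 CPM (log2 0.06 ± 0.32, adjusted p = 0.949), and A replicate 3, the highest in Myh11, was the lowest in Acta1. Log2 fold changes of Acta2, Actg2 and Myh11 were 0.02 ± 0.20, 0.22 ± 0.26 and -0.28 ± 0.23 (adjusted p = 0.976, 0.746 and 0.638).

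With sulindac, A colon had lower values than WT for most members without a call. Again 0 of 31 passed in edgeR, where 0.0507% of 17742 genes did. At an unadjusted p under 0.05 there were 24, beside 9.06% of all genes, and DESeq2 called 1. The median log2 fold change was -0.54, beside 0.02 over all genes, and 10 members did not overlap on the lower side (3.29% of all genes). Acta2 was at 843, 828, 777 and 1246 CPM, all under the lowest WT library by a margin that was small in replicate 4 (log2 -0.56 ± 0.18, adjusted p = 0.459). Myh11 read 1109, 1056, 646 and 1583 CPM (log2 -0.63 ± 0.24, adjusted p = 0.513), and Actg2 gave -0.37 ± 0.17 (adjusted p = 0.558). Acta1, at 3.63, 7.62, 6.51 and 6.76 CPM, gave 0.25 ± 0.27 (adjusted p = 0.757).

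Set against untreated A libraries, sulindac gave 0 calls of 31 in edgeR and DESeq2, where 0% of 17568 genes passed. At an unadjusted p under 0.05 there were 7 members, beside 2.62% of all genes. The median log2 fold change was -0.38, beside 0.01. Acta1 differed by 0.19 ± 0.33, Acta2 by -0.56 ± 0.26, Actg2 by -0.57 ± 0.31 and Myh11 by -0.34 ± 0.33 on the log2 scale (adjusted p = 1 for each). The groups did not overlap for Ppp1r14a alone, on the lower side, as for 1.65% of all genes.

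BA tumours held less of some contractile transcripts than WT proximal colon, while the Acta1 levels of both groups overlapped. In the tumours 0 of 31 genes were higher and 12 lower, where 13.2% of 19188 genes passed, 7.46% higher and 5.71% lower. Across the set the median was -1.05 on the log2 scale, beside 0.03 over all genes. Groups did not overlap for 6 genes on the lower side (11.8% of all genes). This count rested on single libraries: it was 0 without WT replicate 1 or WT replicate 2, 1 without tumour replicate 4, and 6 without tumour replicate 1 or 3.

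Myh11 read 794, 342, 817 and 347 CPM in tumours and 2288, 3259.9 and 835 in WT. All tumours were below all WT samples, though WT replicate 3 was close to the highest tumour (3.79-fold lower, log2 -1.92 ± 0.52, adjusted p = 0.0427). Pln fell most, 5.28-fold, at 1.07, 0.582, 0.446 and 0.528 CPM in tumours against 4.91, 4.30 and 1.11 in WT (adjusted p = 0.0207). Myl9 fell 3.37-fold, Ppp1r14a 2.68-fold, Casq2 3.21-fold and Hspb6 2.29-fold, each without overlap. Smtn (3.56-fold), Tpm2 (3.4-fold), Acta2 (3.06-fold), Lmod1 (3.05-fold), Mylk (2.56-fold) and Dmd (2.44-fold) also fell, with overlap. Adjusted p for these 12 lay between 0.0172 and 0.048.

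Acta1 was at 12.7, 19.0, 10.4 and 26.8 CPM in tumours and 17.3, 13.6 and 18.9 in WT. The tumours spanned the WT range (log2 0.11 ± 0.37, adjusted p = 0.88). Actg2 gave -1.05 ± 0.52 (adjusted p = 0.221). Fibroblast markers summed to 3750.4 to 5323 CPM in tumours and 1568 to 2282 in WT, and mesothelial markers to 94.2 to 430.1 and 1.17 to 17.4 CPM. Endothelial markers were higher for 3 of 4 (78.9 to 235 and 60.4 to 76.7 CPM), and vessel wall and pericyte markers and leukocyte markers for 2 of 4 each. Reads of the Y-linked gene Ddx3y were above 10 CPM in 3 of 4 tumours and 0 of 3 WT samples, and Gm13394 was above 10 CPM in the same numbers of each. The part of these in the result was not tested. Of 35 other smooth muscle genes 2 were higher and 6 lower, from Rock2 (log2 1.08, adjusted p = 0.0418) to Actc1 (-3.78, adjusted p = 0.00493).

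In the small intestine 4 days after loss of Apc, most contractile genes did not pass and the calls went in both directions. Of 31 genes 2 were higher and 5 lower, where 54.2% of 17536 genes passed, 27.5% higher and 26.7% lower. The median log2 fold change was -0.04, beside 0.00 over all genes, and groups overlapped for every member, where 12.6% of all genes did not overlap on the higher side and 5.26% on the lower side. Pln was lower, with a median of 0.582 CPM in Apcfl/fl (0 to 1.18) and 1.94 in WT (0.657 to 2.73), a 3.58-fold fall (log2 -1.84 ± 0.37, adjusted p = 0.000501). Itga7 was 1.92-fold lower, Mylk 1.81-fold, Lmod1 1.64-fold and Ldb3 1.35-fold (adjusted p = 0.000436, 0.0033, 0.0456 and 0.0132). Dmd was 1.5-fold higher, with a median of 32.3 CPM (12.9 to 36.2) against 15.4 (11.6 to 22.0), at an adjusted p of 0.00427.

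Acta1 had a lowest, median and highest level of 8.72, 15.1 and 32.9 CPM in Apcfl/fl and of 1.71, 5.54 and 17.3 in WT. The ranges overlapped, and the 2.09-fold rise only just passed (log2 1.06 ± 0.44, adjusted p = 0.0475). It passed in 6 of the 16 fits without a library, and with DESeq2's size factors in edgeR its adjusted p was 0.0506. Apcfl/fl replicate 1 was the shallowest library of the series and held 17 Acta1 reads. The difference also varied with Gm13394. Among libraries with more than 10 CPM of that pseudogene (6 Apcfl/fl, 3 WT) the log2 difference was 0.32 (adjusted p = 0.591), and among the others (4 and 3) it was 2.50 (adjusted p = 0.000129). Acta2, Actg2 and Myh11 gave -0.04 ± 0.37, 0.93 ± 0.53 and -0.51 ± 0.34 (adjusted p = 0.931, 0.145 and 0.217), with Myh11 at 71.6 to 582 CPM in Apcfl/fl and 181 to 568 in WT. Of 34 other smooth muscle genes tested, 4 were higher and 8 lower, from Actn1, an actin crosslinker (log2 0.94, adjusted p = 0.00102), to Actc1 (-1.14, adjusted p = 0.0593). Markers of other cells were lower as well, 6 of 9 tested for enteric neurons (13.5 to 62.3 CPM summed in Apcfl/fl and 54.1 to 92.6 in WT), 3 of 4 for pericytes and vessel wall (64.3 to 231 and 147 to 306 CPM), 3 of 4 for endothelium (29.6 to 112 and 112 to 141 CPM), 3 of 4 for leukocytes (42.5 to 67.7 and 83.8 to 205 CPM) and 3 of 5 for glia, with 1 higher. Their part in these values was not tested.

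In Apcfl/+ tumours against WT SI, members were called at about the rate of all genes, and most calls were lower. Of 31 genes 3 were higher and 17 lower, where 61.5% of 20567 genes passed, with 31.4% higher and 6189 genes lower. Across the set the median log2 fold change was -0.68, beside 0.03, and groups did not overlap for 2 members on the higher side (31.5% of all genes) and 10 on the lower side (27.4%). Ldb3 read 29.4, 25.4, 36.1, 27.3 and 26.5 CPM in tumours and 78.3, 73.7 and 89.0 in WT. No tumour came near the WT range (2.77-fold lower, log2 -1.47 ± 0.15, adjusted p = 8.94e-05). Ldb3 did not run with Myh11 between tissues, since WT d30 colon held 18.8 to 20.7 CPM of Ldb3 and 1574 to 1900 of Myh11. Between replicates its correlation with Myh11 was 0.37. How much of the Ldb3 reads in SI came from muscle was not tested, here, at day 4 or in the differences between effects. Myh11 was at 151, 354, 260.5, 109.7 and 244 CPM against 711, 769 and 434, without overlap (2.93-fold lower, log2 -1.55 ± 0.34, adjusted p = 0.00386).

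Pln (3.15-fold), Synm, an intermediate filament protein (2.92-fold), Synpo2, which binds actin at Z-line-like bodies (2.56-fold), Ppp1r12b (2.46-fold), Mylk (2.21-fold), Dmd (1.6-fold), Ppp1r12a (1.53-fold) and Hspb6 (1.46-fold) also fell without overlap. Pgm5, Lmod1, Des, Casq2, Tpm2, Smtn and Myocd fell 1.5- to 2.06-fold with overlap. The higher genes were Itga7 (1.67-fold, adjusted p = 0.0299), Csrp1, a LIM protein of smooth muscle (1.64-fold, adjusted p = 0.00193), and Cald1 (1.5-fold, adjusted p = 0.0154). The count fell from 20 to 11 without WT SI replicate 2 and was 26 without tumour replicate 2.

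Acta1 read 1.20, 9.91, 0.783, 1.61 and 2.47 CPM in the tumours and 5.04, 9.10 and 9.63 in WT SI. Tumour replicate 2 was above every WT sample and the other 4 were below them all. The difference did not pass (log2 -1.40 ± 0.69, adjusted p = 0.105), and without tumour replicate 2 it was -2.33 with an adjusted p of 0.000524. Acta2 and Actg2 gave -0.30 ± 0.27 and -0.51 ± 0.30 (adjusted p = 0.352 and 0.166). Ddx3y was above 10 CPM in 1 of 5 tumours and 3 of 3 WT samples. Fibroblast markers summed to 2832 to 4045 CPM in tumours and 1099 to 1418 in WT, with 5 of 6 higher, as were 3 of 4 endothelial and 5 of 10 epithelial markers. Lower were 3 of 4 glial, 4 of 10 neuron and 2 of 4 leukocyte markers. Their part in these values was not tested. Other smooth muscle genes ran from Pdlim7, a PDZ-LIM protein (log2 1.84, adjusted p = 1.76e-05), to Actc1 (-3.67, adjusted p = 0.000201), with 6 higher and 16 lower of 34 tested.

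Differences between effects were tested as interaction terms over libraries already used above. The BA effect in tumours minus that at d30 was called for 1 of 31 genes, where 16.3% of 20637 genes passed, 9.87% higher and 6.46% lower. It was Cald1, whose effect was 1.54 ± 0.50 higher in tumours (adjusted p = 0.0442). The call held in 4 of 16 fits without a library, over values of 1.16 to 2.27, and its adjusted p rose to 0.118 without WT proximal colon replicate 1. The BA tumour effect minus the Apcfl/+ tumour effect was called for 4, where 39.7% of 21668 passed, 21.9% higher and 17.7% lower: Myl9 (-1.81 ± 0.49), Csrp1 (-1.46 ± 0.38), Ppp1r14a (-1.39 ± 0.49) and Ldb3 (1.15 ± 0.29). The Apcfl/+ tumour effect minus the Apcfl/fl day 4 effect was called for 4, where 24.7% of 22202 passed, 12.4% higher and 12.3% lower. They were Acta1 (-2.52 ± 0.79, adjusted p = 0.0227), Dmd (-1.30 ± 0.24), Ldb3 (-1.07 ± 0.23) and Itga7 (1.65 ± 0.31). The first and the last of these differences compare libraries with high and low Rn7sk, so that divide and the stage cannot be told apart. The second sets proximal colon at N6 against small intestine at N9, with Gm13394 and Ddx3y running in opposite directions. The last also sets Apcfl/+ against Apcfl/fl and N9 against N6, and Gm13394 differs. None of these can be told apart from the effects compared.

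Whether Acta1 moved with the muscle content was asked through its ratio to Myh11 in each library. In WT d30 colon there were 2.77, 2.21, 3.31 and 3.64 reads of Acta1 for every 1000 of Myh11. Untreated BA colon had 2.33, 5.76, 1.87, 3.12 and 5.03, a span that covered the WT values (log2 difference 0.17, exact permutation p = 0.659, n = 5 and 4). Antibiotic-treated BA colon had 28.3, 16.8, 17.8, 8.92 and 16.7, each above all WT and all untreated BA libraries.

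The treated ratio was 5.02-fold above untreated BA and 5.66-fold above WT. For both, the exact two-sided permutation p was 0.00794 (n = 5 and 5, and 5 and 4), the smallest these designs allow, or 0.0255 after adjustment over 9 comparisons. In Apcfl/fl day 4 tissue the ratio was 4.22-fold above WT SI d4, with ranges that overlapped (log2 2.08, exact permutation p = 0.00849, adjusted 0.0255, n = 10 and 6). Within the libraries of high and of low Gm13394 this difference was 1.37 and 2.78, with exact permutation p of 0.119 (n = 6 and 3) and 0.0571 (n = 4 and 3). With Actg2 in place of Myh11 it was 0.93 (adjusted p = 0.588, exact permutation, n = 10 and 6), and the antibiotic differences were 2.25 and 2.05 against BA and WT and no longer passed (adjusted p = 0.0714 for both, exact permutation, n = 5 and 5, and 5 and 4). The other comparisons gave 1.77 for BA tumours, 0.95 and 0.34 for A with and without sulindac against WT, 0.61 for sulindac against A, and -0.28 for Apcfl/+ tumours, with exact permutation p from 0.0857 to 0.768. Apcfl/fl replicate 1 had the highest ratio of the series (467 per 1000), from 17 reads of Acta1 and 37 of Myh11. Apcfl/fl replicate 8 held 114 CPM of Myh11 beside 537 CPM of Actg2, the highest Actg2 of its group. Acta1 has 1.536 kb of exon and Myh11 7.599 kb, and the part of transcript length in these ratios was not tested.

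**Figure D5:**
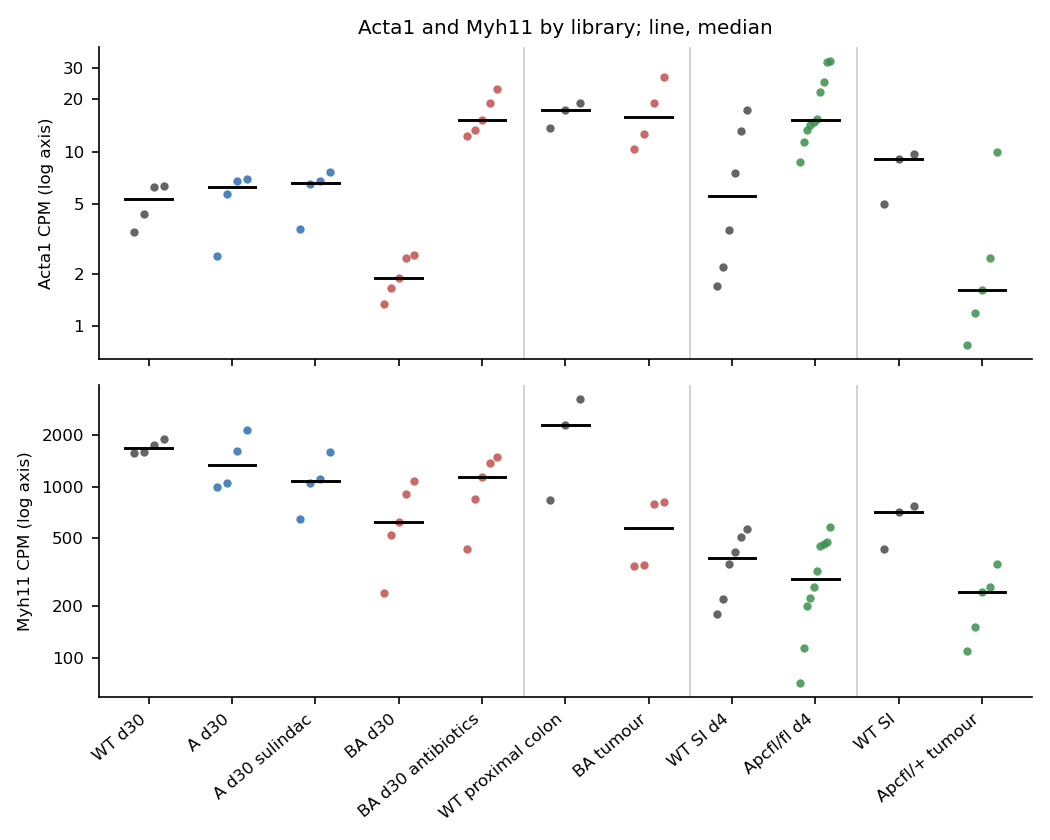
Acta1 (upper panel) and Myh11 (lower panel) in CPM on log axes in all 53 libraries by group; lines mark medians. Acta1 separates antibiotic-treated BA (12.3 to 22.9 CPM) from untreated BA (1.34 to 2.58 CPM), whereas the Myh11 ranges of these groups overlap (435 to 1492 and 238 to 1073 CPM).

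Between replicates of the same group, most contractile genes rose and fell together and Acta1 did not. Taking each library's log2 deviation from its group mean over the 53 libraries, the other 29 genes had a Pearson correlation with Myh11 of 0.22 (Itga7) to 0.97 (Pgm5), with a median of 0.81 and 25 above 0.5. With Acta1 the same 29 genes had correlations of -0.24 (Ppp1r12a) to 0.34 (Ppp1r14a), and 0 were above 0.5. Such points share a library, and genes are not independent. Both sets of 29 correlations include Apcfl/fl replicate 1 and were not recomputed without it. That shallow library held 1 read of Pgm5 and 5 of Actg2, with the highest Acta1 level of its group (32.9 CPM). Acta1 and Myh11 themselves gave r = -0.005 (permutation p = 0.972, adjusted over 3 relations 0.972) and Spearman's rho = -0.053 (permutation p = 0.729). Without the 2 libraries farthest out in Myh11, Apcfl/fl replicate 1 and BA d30 replicate 2, r was 0.056. With Acta2 and Actg2 in its place, r was 0.024 and -0.074. Within the 10 Apcfl/fl libraries r was -0.59 (permutation p = 0.0732) and rho -0.62 (permutation p = 0.0589), and r was -0.54 without the 2 farthest libraries. Within the 6 WT SI d4 libraries r was 0.55 (exact permutation p = 0.269) and rho 0.49 (exact permutation p = 0.356).

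Counting could affect some members. Antisense genes overlap 67.9% of the exon bases of Tagln, 64.7% of those of Pln and 16.3% of those of Smtn, and the strand setting of the counting is not given in the sources used here, so reads of these partners cannot be told apart. The coding sequence of Acta1 resembles that of other actins, and 3.26% of its 36-base words also occur in another gene, mostly Actb.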

How the data were processed

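RNA was sequenced from whole tissue of mouse intestine. The authors deposited 1 table of raw read counts per gene, made by trimming with Trim Galore 0.6.4, alignment with HISAT2 2.1.0 and counting with featureCounts 1.6.4, per the labels and the submitters' processing notes. The strand setting is not given in the sources used here. Groups were taken from the sample labels.

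The 31 genes and all marker lists were chosen with earlier results of these data known. Each group was compared with its own WT in edgeR 4.0.16 (R 4.3.3), with filterByExpr, TMM scaling and the quasi-likelihood test, and p was adjusted by the Benjamini-Hochberg method over all genes tested, with 0.05 as the threshold. Fold changes are printed for Acta1, Acta2, Actg2 and Myh11 in every comparison and for each member called. DESeq2 1.42.0 was an alternative. The log2 ratio of Acta1 to Myh11 (0.5 added to each count) was compared by exact two-sided permutation. Correlations were tested by permutation, with 100000 resamples where n was 10 or more. The code was tested on simulated data. Libraries came from separate mice. The samples were treated as unpaired. Same-numbered libraries had correlations of -0.44 to 0.23. Differently numbered libraries were not correlated, so these values cannot show whether the numbers pair the samples. The closest libraries still differed beyond sampling noise, so none was the same library listed again. That check cannot detect repeat preparations from one mouse. Intervals were not computed, and CPM depends on all other transcripts in the tissue.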

Additional observations from a re-analysis of the deposited data

Results flagged for a closer look

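2 of 54 combinations of a measure (the levels of 4 genes, the summed level of the 31 and the ratio of Acta1 to Myh11) and a group of 4 to 10 libraries held a library whose gap to its nearest neighbour was large for the range of its group, where chance gives about 1 in 20. In Apcfl/+ tumours, Acta1 stood at 9.91 CPM in replicate 2 and at 0.783 to 2.47 CPM in the other 4. In sulindac-treated A colon, Acta2 stood at 1246 CPM in replicate 4 and at 777 to 843 CPM in the other 3.

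Some effects differed between settings by their interaction term in edgeR, where the settings also differed in the other ways given above. The BA effect on Cald1 was 1.54 higher on the log2 scale in tumours than at d30, a call that held in 4 of 16 fits without a library. The tumour effect in BA minus that in Apcfl/+ mice was -1.46 for Csrp1, -1.81 for Myl9, -1.39 for Ppp1r14a and 1.15 for Ldb3. The Apc effect in tumours minus that at day 4 was -1.30 for Dmd, 1.65 for Itga7, -2.52 for Acta1 and -1.07 for Ldb3. For this last difference, DESeq2's size factors moved the median of all genes from -0.02 to -0.16 and the split of calls from 2759 higher and 2727 lower to 2100 higher and 3458 lower.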

How the results depend on the processing

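Alternatives were DESeq2's size factors in edgeR (RLE), no low-count filter, the DESeq2 test, the replicate number as a block, a joint fit of the 5 d30 groups, other reference genes for the ratio, and each library left out in turn. Splits by Gm13394 and a fit without Apcfl/fl replicates 1 and 8 were added after seeing the data. Of 1627 refits of 110 gene results, 1403 kept direction and side of the threshold, 193 lost a call, 8 gained one and 23 turned direction. The Acta1 calls in both antibiotic comparisons and at BA d30 held in every alternative.

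Ratio of Acta1 to Myh11: with Actg2 as reference, BA d30 gave -0.20 and A d30 -0.12 (turned), antibiotic-treated BA gave 2.05 against WT and 2.25 against BA (adjusted p = 0.0714 for both, exact permutation), and Apcfl/fl gave 0.93. With Acta2 as reference Apcfl/fl gave 1.63. With Myh11 itself, it gave 1.37 or 2.78 in libraries with Gm13394 above or up to 10 CPM. Leaving out single libraries, the ratio ranged from 1.22 to 2.44 for BA tumours, -0.026 to 0.38 for BA d30 (turned without BA replicate 2), 2.31 to 2.73 and 2.12 to 2.55 for antibiotics against WT and BA, 0.04 to 0.89 for A, 0.67 to 1.21 and 0.06 to 0.92 for sulindac against WT and A, 1.70 to 2.33 for Apcfl/fl, and -0.68 to 0.15 for Apcfl/+ tumours (0.14 and 0.15 without WT SI replicate 3 or tumour replicate 3). The correlation of Acta1 with Myh11 was 0.056 without the 2 farthest libraries.

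Counts of members called: with the replicate block, BA tumours had 0, Apcfl/+ tumours 11, antibiotics against BA 1, the BA effect between stages 0 and the tumour effect between genotypes 1. No other count moved by over 1.5 times under the block, and the labels give the samples only a number in common. With DESeq2, sulindac against WT had 1, the BA effect 2, the tumour effect 7 and the Apc effect 8. The joint fit gave 1 for antibiotics against BA, no filter gave 7 for the tumour effect and RLE gave 7 for the Apc effect. Without single libraries the counts ranged from 0 to 13 for BA tumours, 22 to 28 for BA d30, 6 to 8 and 1 to 5 for antibiotics against WT and BA, 5 to 8 for Apcfl/fl, 11 to 26 for Apcfl/+ tumours, 0 to 3 for the BA effect, 3 to 9 for the tumour effect and 3 to 8 for the Apc effect, and were 0 throughout for A and both sulindac comparisons.

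Log2 values that turned direction were mostly near 0 and uncalled. Acta1 in BA tumours was -0.25 with the block, and -0.09 and -0.12 without tumour replicate 2 or 4 (range to 0.31). Actg2 was 0.082 in antibiotic-treated BA against WT without treated replicate 1 (range from -0.31). In A against WT, Acta2 was -0.024 with the block and -0.16, -0.04 and -0.03 without A replicate 2, A replicate 3 or WT replicate 1. Acta1 there was -0.11, -0.04, -0.02 and -0.09 without A replicate 1 or 2 or WT replicate 1 or 2 (range to 0.30), and Actg2 -0.072 without A replicate 2 (range to 0.41). In Apcfl/fl, Acta2 was 0.07, 0.02, 0.05, 0.02 and 0.13 without Apcfl/fl replicate 1, 9 or 10 or WT replicate 4 or 5, and 0.0049 without Apcfl/fl replicates 1 and 8. In libraries with Gm13394 up to 10 CPM, Acta2 was 0.61, Myh11 0.22 and Lmod1, which was called, 0.13. Acta1 was -0.047 for sulindac against A without A replicate 3 (range to 0.36). The causes were not tested. Myocd, Casq2 and Pln had few reads, which limits their precision, and arms of 3 or 4 libraries limit what the tests could call.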
